A study of Homo sapiens with 8 samples.

Results

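The RNA of 10 genes that take the cap off RNA or digest RNA from its 5′ end was followed in HEK293T, a cell line grown from human embryonic kidney. The genes were DXO, DCP2, DCP1A, DCP1B, DCPS, NUDT3, NUDT12, NUDT16, XRN1 and XRN2, out of 25968 gene symbols in the table. A gene's level was the sum of the table rows whose RefSeq transcript identifier belongs to it. These were 27 rows, of which 22 were above 0 in at least 1 library. The values are FPKM: sequenced fragments of a transcript divided by its length in kilobases and by the mapped fragments of the library. FPKM is a level per length, so it can be compared between genes.

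There were 8 libraries in 3 groups, all from untreated HEK293T cells under standard culture. WT RiboMinus (n = 2) is RNA of wild-type cells after removal of ribosomal RNA. WT NAD-Capture (n = 3) is wild-type RNA bound to streptavidin beads after an ADP-ribosyl cyclase and a click reaction had put biotin on RNA that carries NAD. The third group (n = 3) is NAD-Capture RNA of cells whose modification is labelled DXO-KO, a knockout of DXO; the labels give no edit site, no clone and no RiboMinus library of these cells. The RiboMinus and NAD-Capture libraries were made with different kits, so enrichment and kit cannot be told apart between them. The labels do not say that replicates came from separate cultures, so p-values measure only the spread between these libraries, and in bulk RNA a difference in the mix of cells and a difference in RNA per cell cannot be told apart.

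Most eukaryotic messenger RNAs carry a methylated guanosine cap that protects the 5′ end. DCP2, with its cofactors DCP1A and DCP1B, cuts that cap off, and the exonuclease XRN1 then digests the body in the cytoplasm, while XRN2 digests 5′ ends in the nucleus, among them the RNA left after cleavage at the poly(A) site. DCPS breaks down the short capped remnant that decay from the 3′ end leaves behind. RNA can also start with NAD in place of a cap. DXO removes NAD and incomplete caps and digests the body. NUDT12, NUDT16 and NUDT3 are members of the Nudix family, hydrolases that act on nucleotide diphosphate bonds and include further decapping enzymes.

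NAD can replace ATP as the first nucleotide of a transcript, so the base at the start site is of interest here. The windows below hold 30 bases before the annotated start and 9 after it, with the start base in capitals, 5′ to 3′ on the gene's own strand. They are shown for the members whose levels passed the test in a comparison below, leaving out NUDT3, whose level is uncertain. All are from RefSeq, build GRCh38.p14. DXO lies at chr6:31972129-31972168 on the minus strand, DCPS at chr11:126304030-126304069 on the plus strand and DCP1A at chr3:53347534-53347573 on the minus strand. XRN2 has starts in chr20:21303301-21303340 and chr20:21303468-21303507, both on the plus strand.
DXO: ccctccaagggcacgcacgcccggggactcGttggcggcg
DCPS: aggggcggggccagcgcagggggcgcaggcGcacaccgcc
DCP1A: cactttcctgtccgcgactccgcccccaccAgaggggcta
XRN2 first start: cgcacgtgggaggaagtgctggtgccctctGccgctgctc
XRN2 second start: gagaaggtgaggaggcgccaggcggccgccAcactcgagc
The annotated start of DXO and DCPS was G, that of DCP1A was A, and XRN2 had 1 of each. The RefSeq starts used here covered 9 of the 10 members, NUDT12 being the exception, with 11 starts in all. The start base was A in 5 of them (45.5%), G in 4 and C in 2. Among all 35116 starts in the RefSeq table, 44.4% were A, 33.6% G, 14.7% C and 7.24% T. The annotated start is not a start mapped in these cells, and nothing about capping follows from it.

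Summed FPKM and depth differed widely between the groups. The FPKM of all rows summed to 541482 and 544947 in RiboMinus replicates 1 and 2, and to 1148707 to 2107432 in WT NAD-Capture. In DXO-KO-labelled replicates 1, 2 and 3 the sum was 1272063, 8558867 and 6941277. FPKM of low transcripts clustered in even steps, each the worth of 1 fragment. The steps gave a depth equal to 8763172 to 10660634 fragments in the RiboMinus libraries, 164731 to 249713 in WT NAD-Capture, and 806185, 138700 and 80666 in DXO-KO-labelled replicates 1, 2 and 3. With 1 kb of effective length, 1 fragment was worth 0.0938 to 0.114 FPKM in RiboMinus, 4.00 to 6.07 in WT NAD-Capture, and 1.24, 7.21 and 12.4 in DXO-KO-labelled replicates 1 to 3. DXO-KO-labelled replicate 1 thus stands apart in depth, and values without it are given for the comparison between the NAD-Capture groups. As a check of the cell line, VIM was at 308 to 321 FPKM and LIN28B at 30.5 to 34.4 in RiboMinus, KRT8, KRT18, NEFL and NEFM were present, and PAX2 was at 0.0831 to 0.204. PTPRC of blood cells was at 0 in all 8 libraries, and ALB of liver was at most 0.229. The summed level of the 5 markers of other cells, which also hold COL1A1, CDH5 and DES, was 1.59 to 1.73 FPKM in RiboMinus, 11.7 to 13.5 in WT NAD-Capture and 2.57 to 12.6 with the DXO-KO label. That of the 7 HEK293T markers was 368 to 391, 171 to 243 and 336 to 424. Between WT NAD-Capture and RiboMinus, COL1A1 (2.01), NEFM (3.63), PAX2 (2.61) and NEFL (1.76) rose and VIM (−1.90) fell on the log2 scale, by limma at an adjusted p under 0.05; the part of these shifts in the members' results was not tested.

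In RiboMinus RNA all 10 members were present, and the nuclear exonuclease XRN2 was the most abundant of them. XRN2 stood at 62.4 and 62.0 FPKM in replicates 1 and 2, with a mean of 62.2 ± 0.302 (SD, n = 2). XRN1, its cytoplasmic counterpart, stood at 12.4 and 11.8. XRN2 therefore exceeded XRN1 by 5.02 and 5.27 times in the 2 libraries.

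The catalytic subunit DCP2 was the next in order, at 27.4 and 24.5 FPKM. Its cofactor DCP1A was at 19.0 and 20.2, and the other cofactor, DCP1B, was the lowest member at 8.75 and 7.25. The DCP1A level lay below that of DCP2 and above that of DCP1B in both libraries. DCPS, the scavenger enzyme, had 18.4 and 19.1, a range that overlapped with that of DCP1A.

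The deNADing enzyme DXO was in the middle of the order, at 11.2 and 14.3 FPKM, a mean of 12.7 ± 2.19 (SD, n = 2). Among genes above 0, this was above 65.1% of the others in replicate 1 and 70.1% in replicate 2. The ranges of DXO, NUDT3 (12.0 and 14.4), NUDT16 (11.3 and 13.2) and XRN1 overlapped with their neighbours in the order, so they cannot be ranked. NUDT12, an NADH pyrophosphatase that also acts on NAD-capped RNA, was lower, at 10.5 and 9.58.

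**Figure D1:**
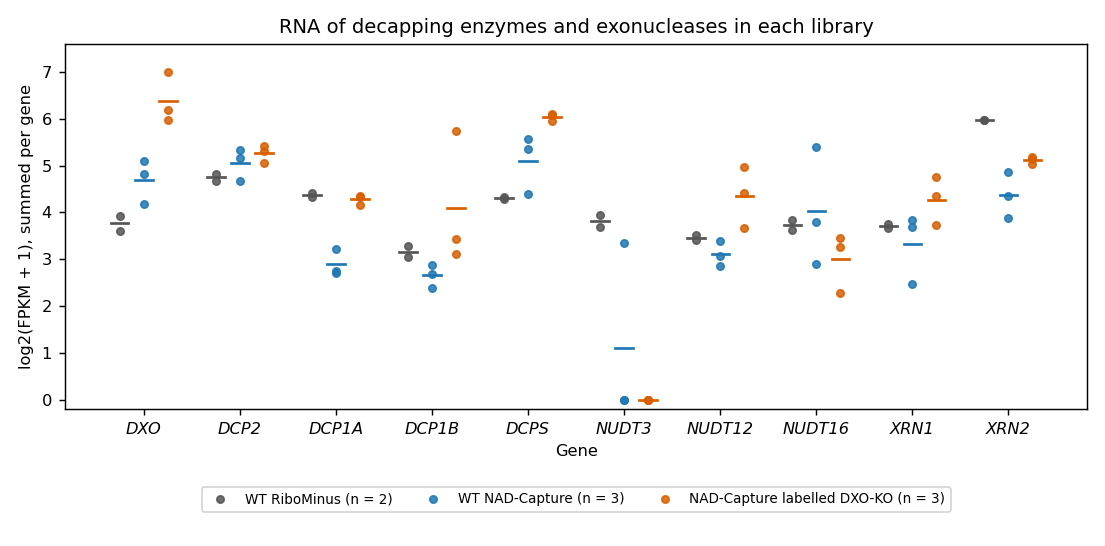
Level of each of the 10 genes in each library, as log2(FPKM + 1) on the vertical axis, with genes on the horizontal axis; points are libraries, horizontal bars are group means on the log2 scale, and colours mark WT RiboMinus (n = 2), WT NAD-Capture (n = 3) and NAD-Capture labelled DXO-KO (n = 3). DXO and DCPS have their highest points in the DXO-KO-labelled libraries, DCP1A and XRN2 are lower in WT NAD-Capture than in RiboMinus, and NUDT3 is listed at 0 in 5 of the 6 NAD-Capture libraries.

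WT NAD-Capture against WT RiboMinus asks which transcripts are enriched among captured RNA. In this comparison XRN2 and DCP1A fell, and no member rose past the threshold. Differences were tested with limma on log2(FPKM + 1), over 17023 genes with a mean FPKM of at least 1, and a gene was called at an adjusted p under 0.05. Of the 10 members, all of which passed the filter, 2 were called, both lower. In all genes tested, 24.7% were called, 7.98% lower and 16.7% higher.

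XRN2 had 19.4, 28.2 and 13.8 FPKM in WT NAD-Capture replicates 1 to 3, against 62.4 and 62.0 in RiboMinus. Every captured library lay below both RiboMinus libraries. The log2 fold change was −1.61 ± 0.324 (SE; 95% interval −2.43 to −0.80) with a limma adjusted p of 0.0220. XRN1 was not called. Its 13.4, 11.8 and 4.56 FPKM overlapped with RiboMinus, at −0.37 ± 0.472 and a limma adjusted p of 0.582. The XRN2 to XRN1 ratio was 1.45, 2.39 and 3.03 in the captured libraries, below both RiboMinus ratios; no test of the difference between the genes was made.

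DCP1A, which helps to switch on DCP2, had 8.31, 5.51 and 5.75 FPKM, against 19.0 and 20.2 in RiboMinus. The groups did not overlap, and the log2 fold change was −1.47 ± 0.273 (SE; 95% interval −2.16 to −0.79), with a limma adjusted p of 0.0175. Fragment numbers are not given for DCP1A, because its level moves between rows. With 1 kb of effective length, 1 fragment was worth 4.00 to 6.07 FPKM in WT NAD-Capture, near these levels. The reference lengths of the DCP1A rows are 1853 or 5994 nt, and on a longer row 1 fragment is worth less FPKM. Each captured library listed its DCP1A level on a single transcript row, and a different row in each of the 3. Both RiboMinus libraries listed at least 93.9% of theirs on NM_018403. FPKM divides by transcript length, so the row to which fragments are assigned enters the value; its part in the result was not tested.

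Neither call held when a RiboMinus library was left out. Without RiboMinus replicate 1 the limma adjusted p was 0.209 for DCP1A and 0.199 for XRN2, and without replicate 2 it was 0.231 and 0.187, with log2 fold changes between −1.43 and −1.62. In those fits the remaining RiboMinus library is assumed to vary like the captured ones. The XRN2 call was also lost without WT NAD-Capture replicate 1 (limma adjusted p 0.0586) and under quantile normalization (0.0573).

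DXO and DCPS were the 2 members whose captured levels all lay above RiboMinus, and neither was called. DXO had 33.2, 17.2 and 27.1 FPKM in WT NAD-Capture, or 25.8 ± 8.10 (SD, n = 3), at a log2 fold change of 0.93 ± 0.335 (SE) and a limma adjusted p of 0.106. These levels rest on 9, 4 and 10 fragments. Without WT NAD-Capture replicate 2, the lowest, DXO was at 1.18 with a limma adjusted p of 0.0300. DCPS had 19.9, 46.3 and 40.0 FPKM, at 0.80 ± 0.393 and a limma adjusted p of 0.209. Its lowest library decided this too: without WT NAD-Capture replicate 1, DCPS was at 1.16 with a limma adjusted p of 0.0189, and without replicate 2 it was at 0.57. Both genes moved closer to RiboMinus under median centring and mRNA scaling. Quantile normalization moved them further from it, to 0.99 for DXO and 0.97 for DCPS. Median centring gave 0.45 for DXO and 0.32 for DCPS (limma adjusted p 0.349 and 0.572), and mRNA scaling gave 0.51 and 0.38. Over all alternatives the limma adjusted p ranged from 0.0300 to 0.513 for DXO and from 0.0189 to 0.582 for DCPS.

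WHR1, formerly STK19, overlaps DXO on the opposite strand in the reference annotation, and the other neighbour is SKIC2. Whether counting used strand is not given in the sources used here, so reads of DXO and WHR1 cannot be told apart with certainty. In RiboMinus WHR1 had 2.65 and 1.81 FPKM. WT NAD-Capture held 12.8, 8.40 and 8.65 of it, and DXO-KO-labelled replicates 1 to 3 held 2.66, 0 and 0. SKIC2 had 12.8 and 13.4, then 6.60, 16.9 and 10.3, then 6.99, 7.38 and 6.25 FPKM. WHR1 was thus higher in WT NAD-Capture than in RiboMinus, as DXO was, and its zeros stand in libraries where 1 fragment is worth more than its RiboMinus level. The part of either neighbour in the DXO level was not tested.

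The other members did not pass the test. DCP2, at 39.6, 35.1 and 24.6 FPKM, overlapped with RiboMinus, with a log2 fold change of 0.32 ± 0.264 (95% interval −0.35 to 0.98) that turned to −0.16 with each library centred on its median gene and to −0.11 with each scaled to its summed mRNA FPKM. DCP1B, at 5.47, 6.36 and 4.24 FPKM on 2 fragments in each library, and NUDT12, at 9.51, 7.39 and 6.25, lay just below RiboMinus without overlap, at −0.51 and −0.35, limma adjusted p 0.271 and 0.394. NUDT16, which removes the cap of a small nucleolar RNA, had 41.0, 6.41 and 12.8 FPKM. Its 1 high library set the sign of its log2 fold change, 0.30, which was −0.38 without it, −0.17 with median centring and −0.11 with mRNA scaling.

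NUDT3, a Nudix hydrolase of inositol pyrophosphates with decapping activity, was listed at 0, 0 and 9.17 FPKM in WT NAD-Capture and at 0 in all 3 libraries labelled DXO-KO. It shares sequence with the readthrough gene RPS10-NUDT3, so its level is uncertain. The readthrough had 13.6 and 8.86 FPKM in RiboMinus, and WT NAD-Capture held 22.3, 9.75 and 0 of it. Each captured library thus listed all of its signal on only 1 of the 2. Their sum in RiboMinus was 25.6 and 23.3 FPKM. Among captured RNA it was 22.3, 9.75 and 9.17 in wild type, then 16.2, 7.95 and 6.65 with the DXO-KO label, all of the latter on the readthrough row. The sum was below both RiboMinus values in all 6 captured libraries and overlapped between the NAD-Capture groups.

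Taking the 10 members as a list, 2 were higher in WT NAD-Capture without overlap (28.8% of all genes tested). In the other direction 5 were lower, among them NUDT3, whose level is uncertain (26.9% of all genes). The median log2 fold change of the 10 members, NUDT3 included, was −0.36, against 0.21 over all genes tested. Centring each library on its median gene moved the median of all genes to −0.26 and mRNA scaling moved it to −0.17, so the direction of a member with a small change is relative to that choice. Of the genes called, 67.7% were higher as deposited, 41.9% after centring and 47.0% after mRNA scaling. DCP1A and XRN2 were lower under each of these scalings.

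**Figure D2:**
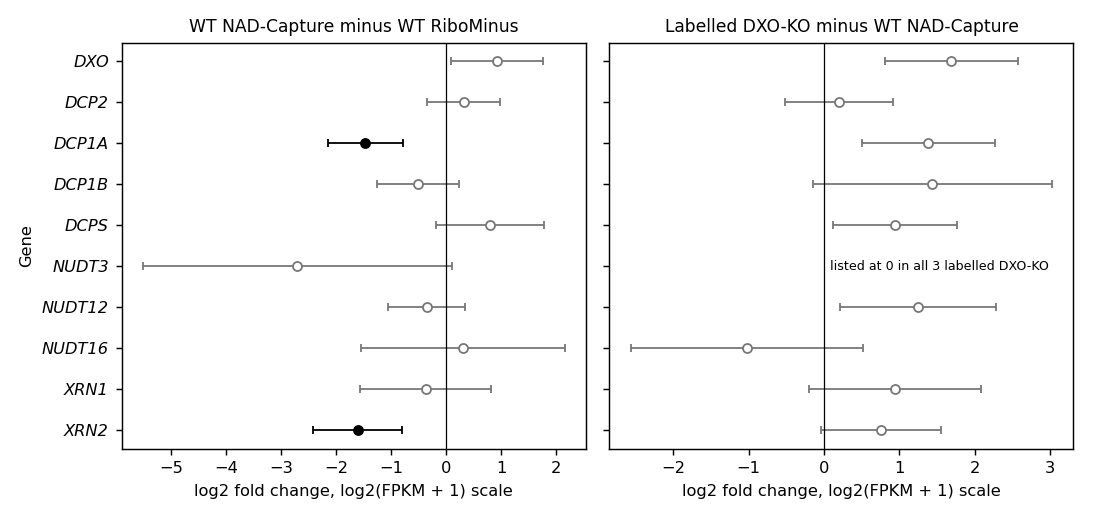
Log2 fold change on the log2(FPKM + 1) scale (horizontal axis) of each gene (vertical axis), WT NAD-Capture minus WT RiboMinus at left and NAD-Capture labelled DXO-KO minus WT NAD-Capture at right; bars are 95% intervals from limma and filled points have an adjusted p under 0.05. At left DCP1A (−1.47) and XRN2 (−1.61) are filled; at right no point is filled, 8 of the 9 points lie above 0 and NUDT3 has no fold because it is listed at 0 in all 3 libraries labelled DXO-KO.

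The comparison of NAD-Capture RNA labelled DXO-KO with WT NAD-Capture asks what captured RNA gains when DXO is lost. No member passed the limma test here (0 of 10), although 8 had log2 fold changes above 0 (49.5% of all genes) and 6 of them were higher without overlap between the groups (11.8%). Only 6 of 17767 genes tested (0.0338%) were called by limma. At an unadjusted p under 0.05, 4 members stood out, DXO, DCP1A, DCPS and NUDT12, all higher, against 16.7% of all genes in either direction and 7.06% higher.

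DXO itself had 128, 61.6 and 71.7 FPKM in DXO-KO-labelled replicates 1, 2 and 3, against 33.2, 17.2 and 27.1 in WT NAD-Capture. The lowest library labelled DXO-KO lay above the highest wild-type one. This is a mean of 87.0 ± 35.6 against 25.8 ± 8.10 (SD, n = 3 each), a log2 fold change of 1.69 ± 0.387 (SE; 95% interval 0.81 to 2.57), with a limma adjusted p of 0.114. Without DXO-KO-labelled replicate 1 it was 1.38, with a limma adjusted p of 0.160. DXO was the most abundant of the 10 members in these libraries by mean, with a range that overlapped with that of DCPS.

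Each library labelled as a knockout thus had a higher DXO level than every wild-type captured library, without passing the test. A level summed over the whole transcript cannot show whether an edited stretch was present, and the labels do not say what was edited. It does not check the label, and these libraries are therefore named by it. In fragments, DXO rests on 147, 12 and 8, with 95% Poisson intervals of 108 to 150, 31.3 to 106 and 30.0 to 137 FPKM, which cover counting error only. In wild-type replicate 1, the highest, the 9 fragments allow 15.0 to 62.4 FPKM. By rank, DXO lay above 97.5%, 91.0% and 90.6% of genes above 0 in the DXO-KO-labelled libraries and above 87.4%, 72.8% and 86.9% in WT NAD-Capture.

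**Figure D3:**
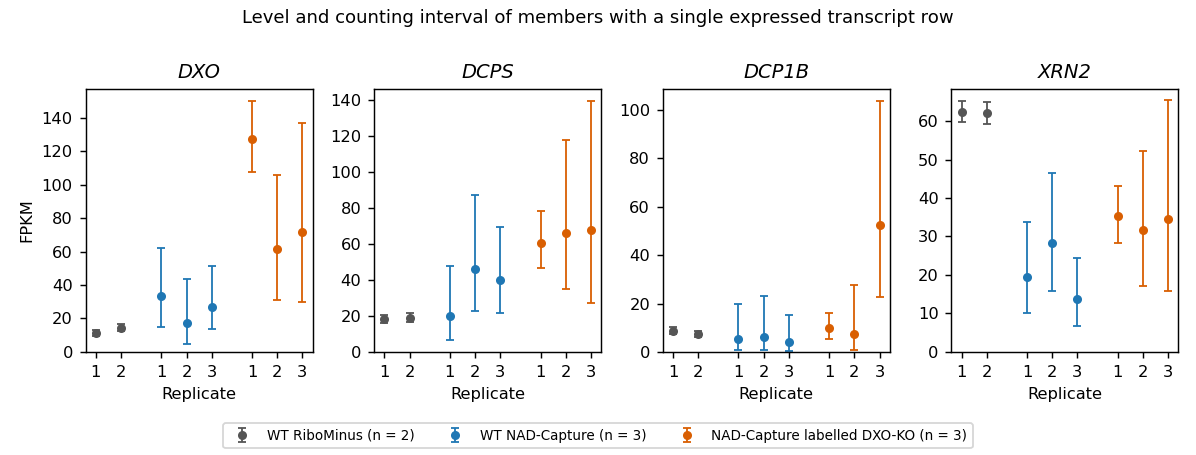
FPKM (vertical axis) of the 4 members other than NUDT3 whose level sits on a single transcript row, by replicate (horizontal axis) and group. Points are libraries and bars are 95% Poisson intervals from the number of fragments, for counting error only. DXO is at 61.6 to 128 FPKM in the DXO-KO-labelled libraries, and the bars of captured libraries are wide, as for DCP1B in DXO-KO-labelled replicate 3, which rests on 8 fragments.

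DCPS, which clears cap remnants, had 60.8, 66.5 and 68.0 FPKM in the DXO-KO-labelled libraries, all above the 19.9, 46.3 and 40.0 of wild type. The spread was small, 65.1 ± 3.79 (SD, n = 3), although replicates 2 and 3 rest on 12 and 7 fragments and replicate 1 on 63. Its log2 fold change was 0.94 ± 0.362 (95% interval 0.12 to 1.77) with a limma adjusted p of 0.253. Without WT NAD-Capture replicate 1, the lowest, it was 0.58.

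Among the DCP2 complex, both cofactors were higher without overlap and the catalytic subunit overlapped. DCP1A had 19.4, 16.8 and 19.2 FPKM against 8.31, 5.51 and 5.75, a log2 fold change of 1.39 ± 0.387 and a limma adjusted p of 0.162. These values overlapped with the RiboMinus level of DCP1A. DCP1B had 9.82, 7.62 and 52.6 FPKM against 5.47, 6.36 and 4.24, at 1.44 ± 0.697 and a limma adjusted p of 0.331. It rests on 2 fragments in DXO-KO-labelled replicate 2 (95% Poisson interval 0.926 to 27.6 FPKM), as in each wild-type library, so the lack of overlap there comes from the same fragment number at another depth. The size of the DCP1B difference rested on DXO-KO-labelled replicate 3: without it the log2 fold change was 0.62. DCP2 had 32.5, 41.8 and 38.9 FPKM against 39.6, 35.1 and 24.6, at 0.20 ± 0.312 (95% interval −0.51 to 0.91, limma adjusted p 0.754), and quantile normalization turned its sign, to −0.06.

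Both exonucleases had higher means. XRN2 had 35.3, 31.6 and 34.6 FPKM, above the 19.4, 28.2 and 13.8 of wild type, at 0.75 ± 0.349 and a limma adjusted p of 0.319. XRN1, at 12.2, 26.1 and 19.3 FPKM, overlapped with the 13.4, 11.8 and 4.56 of wild type, at 0.94 ± 0.502 and a limma adjusted p of 0.366. XRN2 thus exceeded XRN1 by 2.89, 1.21 and 1.79 times, a range that overlapped with that of WT NAD-Capture.

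The Nudix members went different ways. NUDT12 had 11.8, 20.2 and 30.6 FPKM, all above the 9.51, 7.39 and 6.25 of wild type, at 1.25 ± 0.451 and a limma adjusted p of 0.233. Its 2 highest libraries and its lowest, wild-type replicate 3, listed the level on NM_001300741, and the other 3 captured libraries on NM_031438. NUDT16, at 9.93, 3.84 and 8.64 FPKM, overlapped with wild type, at −1.03 ± 0.676 and a limma adjusted p of 0.457. Without WT NAD-Capture replicate 1, its highest library, the value was −0.34. The NUDT3 row was at 0 throughout in the DXO-KO-labelled libraries, so no fold is given.

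Counted as a list, 6 members (DXO, DCP1A, DCP1B, DCPS, NUDT12 and XRN2) were higher in the DXO-KO-labelled libraries without overlap and none lower. Over all genes tested, 11.8% were higher and 11.5% lower in this way. Among the 9217 genes above 0 in every library, the members counted were the same 6 and the share of all genes was 18.9%. The count was 7, with XRN1 added, under median centring (18.1% of all genes), without DXO-KO-labelled replicate 1 (20.6%) and without WT NAD-Capture replicate 1 (16.9%). Without WT NAD-Capture replicate 2 it was 6 (15.4%), and NUDT16 was lower without overlap (17.0%). With mRNA scaling it was 6, with XRN1 in place of XRN2 (10.1%). The median log2 fold change of the members was 0.94, against −0.02 over all genes tested and 0.28 over genes above 0 in every library. Median centring moved the all-gene median to 0.11.

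Without DXO-KO-labelled replicate 1, log2 fold changes were 0.99 for DCPS, 1.35 for DCP1A, 1.77 for DCP1B and 0.30 for DCP2. They were 1.22 for XRN1, 0.72 for XRN2, 1.59 for NUDT12 and −1.25 for NUDT16, with limma adjusted p from 0.166 to 0.635 over these 8 members.

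The test depends on which libraries estimate the spread. With all 8 libraries in a common fit, DXO (limma adjusted p 0.0493) and DCP1A (0.0472) passed, among 440 genes called of 17767 tested. The other 8 members did not pass in that fit. Neither DXO nor DCP1A passed in any other of the 16 alternatives.

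The DXO-KO-labelled libraries were also set against WT RiboMinus. This comparison shares its RiboMinus libraries with the first and its captured libraries with the second, so its values stand beside theirs and are no separate support. DXO and DCPS rose by limma, 2 of the 9 members other than NUDT3, where 3.32% of 15077 genes tested were called, 2.47% higher and 0.849% lower. NUDT3 also passed the threshold, which is no result, for the reason given with its values.

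DXO stood at 87.0 ± 35.6 FPKM (SD, n = 3) against 12.7 ± 2.19 (n = 2), a log2 fold change of 2.61 ± 0.374 (SE; 95% interval 1.69 to 3.54) with a limma adjusted p of 0.0328. DCPS stood at 65.1 ± 3.79 against 18.8 ± 0.484, a log2 fold change of 1.74 ± 0.215 (95% interval 1.21 to 2.27) with a limma adjusted p of 0.0243. The groups did not overlap for either gene, and without DXO-KO-labelled replicate 1 both calls held, at 2.30 and 1.79. NUDT3, listed at 0 in all 3 libraries labelled DXO-KO, passed the filter only through RiboMinus and so had to differ, and its signal in these libraries sat on the readthrough row; its limma adjusted p was 0.0314. All 3 calls were lost when either RiboMinus library or DXO-KO-labelled replicate 2 was left out. The DXO and DCPS calls were also lost with mRNA scaling (limma adjusted p 0.134 and 0.117), and those of DXO and NUDT3 with no filter on low values (0.0667 and 0.0632).

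XRN2, called lower in WT NAD-Capture, was lower here too, at 33.8 ± 1.98 FPKM against 62.2 ± 0.302, with no overlap, a log2 fold change of −0.86 ± 0.213 and a limma adjusted p of 0.0959. DCP1A overlapped with RiboMinus, at −0.08 ± 0.246 (95% interval −0.70 to 0.53). The other 5 members were not called, with log2 fold changes from −0.73 for NUDT16 to 0.93 for DCP1B. In all, 4 members lay higher without overlap (24.2% of all genes) and 3 lower, NUDT3 among them (20.2%), and the median was 0.54 against 0.20 over all genes.

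**Figure D4:**
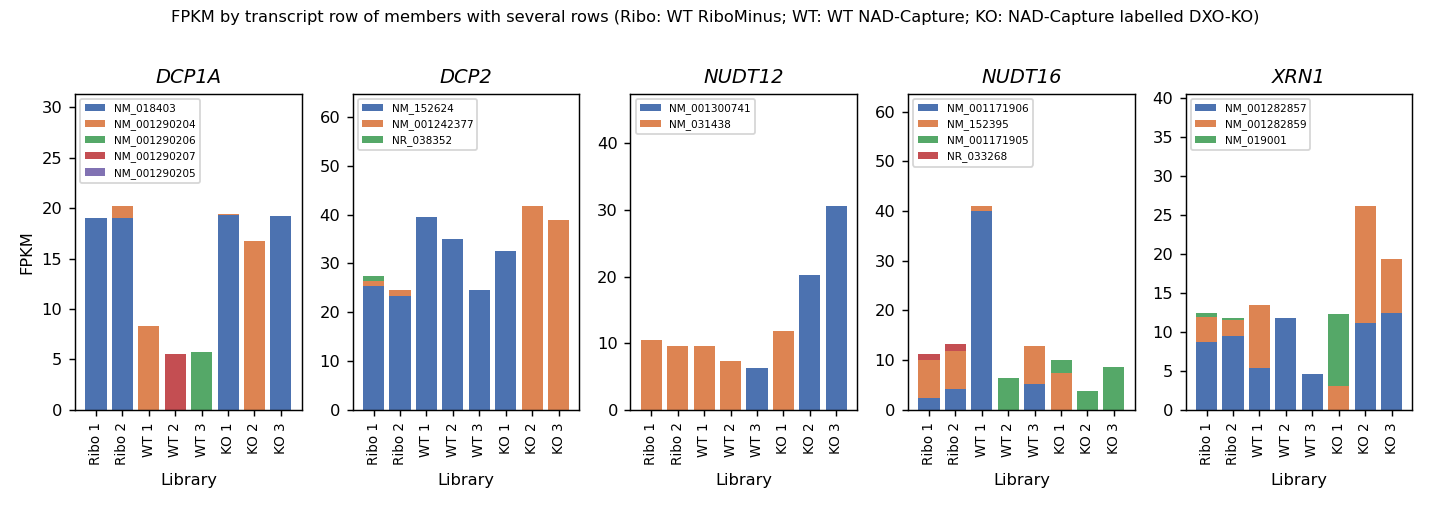
FPKM (vertical axis) of the members with several transcript rows in each library (horizontal axis: Ribo, WT RiboMinus; WT, WT NAD-Capture; KO, NAD-Capture labelled DXO-KO), stacked by RefSeq transcript. The 2 RiboMinus libraries share their main row for every gene, while the captured libraries put DCP1A, DCP2, NUDT12, NUDT16 and XRN1 on changing rows.

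The transcript rows behind these sums changed from library to library among captured RNA. DCP2 sat on NM_152624 at 92.8% or more of its level in both RiboMinus libraries, in all WT NAD-Capture libraries and in DXO-KO-labelled replicate 1. In DXO-KO-labelled replicates 2 and 3 it sat on NM_001242377 instead. A gene's main transcript row is here the one with the highest mean over the 8 libraries. Taken by its main transcript row, DCP2 had a log2 fold change of −3.37 in the DXO-KO-labelled libraries against WT NAD-Capture. The gene sum gave 0.20. XRN1 likewise went from 0.94 to −0.48 when read by its main row, and neither value passed the test. For NUDT16 the main row was NM_001171906, at −2.09 in the DXO-KO-labelled libraries against RiboMinus (limma adjusted p 0.0276). It was listed at 2.46 and 4.27 FPKM in RiboMinus replicates 1 and 2 and at 0 in all 3 DXO-KO-labelled libraries. That row passed the filter only through RiboMinus and so had to differ, which is no result. The gene sum of NUDT16 gave −0.73, with a limma adjusted p of 0.428.

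Beyond the 10 members, genes that work with them were counted from fixed lists, to be read beside the 16.7% of all genes called higher and 7.98% called lower, and the all-gene median of 0.21, in WT NAD-Capture against RiboMinus. Of 15 decapping activators, which recruit or stimulate DCP2, 1 was called in WT NAD-Capture against RiboMinus: EDC4, the scaffold that joins DCP1 and DCP2, fell to 9.61 from 33.6 FPKM, a log2 fold change of −1.71 (limma adjusted p 0.00719). The median of that list was −0.20. EDC4 was also called against RiboMinus in the DXO-KO-labelled libraries, at −1.76 (limma adjusted p 0.0385), the only gene of these lists outside the members to be called there. Deadenylases shorten the poly(A) tail before decapping. Of 13 genes for deadenylases or subunits of their complexes, 6 fell and none rose. The 3 largest changes were PARN at −1.92, CNOT9 at −1.85 and CNOT10 at −1.75. Among the 6, only PARN is itself an enzyme, and the others are subunits without that activity. All 13 had negative log2 fold changes, with a median of −0.94, where 55.2% of all genes had positive ones.

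Among 19 other Nudix hydrolases, NUDT5 fell by 1.99 on the log2 scale and the median was −0.42. NUDT7 was listed at 0 in all WT NAD-Capture libraries, against a mean of 4.01 FPKM in RiboMinus. It passed the filter only through RiboMinus. With 1 kb of effective length, 1 fragment was worth 4.00 to 6.07 FPKM in WT NAD-Capture, so its call is no result. Among 10 genes of cap synthesis and cap binding, CMTR1, a cap methyltransferase, fell by 1.61 and the median was −0.58. Of 5 XRN2 partners and termination factors, NKRF fell by 2.98 and CDKN2AIP by 1.26, and CDKN2AIPNL rose by 0.90. XRN2 was thus called lower along with 2 of its 5 listed partners. These calls used limma at an adjusted p under 0.05 over all genes.

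Between the NAD-Capture groups no gene of these lists was called by limma. The median log2 fold change was 0.40 for decapping activators and −0.07 for the 18 other Nudix hydrolases tested. It was 0.78 for deadenylases and their subunits, 0.72 for cap synthesis and binding and 0.64 for XRN2 partners, against −0.02 for all genes. Groups did not overlap, with the DXO-KO-labelled libraries higher, for 5 deadenylases or subunits and 4 genes of cap synthesis and binding. The same held for 2 XRN2 partners, 1 other Nudix hydrolase and no decapping activator (11.8% of all genes). They did not overlap in the lower direction for 1 decapping activator, 2 other Nudix hydrolases, 1 XRN2 partner and no gene of the other lists (11.5% of all genes). The most abundant gene of each list in RiboMinus had a log2 fold change of 1.56 (LSM3), −0.13 (NUDT5), 0.79 (CNOT1), 0.74 (EIF4E2) and 1.60 (NKRF).

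The genes whose log2(FPKM + 1) followed a member most closely over the 8 libraries were found among 9008 genes above 0 in all of them. For DXO these were NIPBL-DT, SLC4A8 and SNHG7, with Pearson r of 0.97, 0.97 and 0.96. FAM241A, GGCT and GNAS followed DCP2, with r of 0.99, 0.98 and 0.97. EMD, TWSG1 and UBXN4 followed XRN1, with r of 0.99, 0.98 and 0.97. SNHG7, a noncoding snoRNA host gene, had 37.6 and 45.7 FPKM in RiboMinus and 52.4 to 54.9 in the wild-type captured libraries. DXO-KO-labelled replicates 1 to 3 had 136, 82.9 and 76.4. Libraries of a group share their enrichment and kit, and the highest r out of so many genes is high by choice, so these are descriptions.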

How the data were processed

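RNA was sequenced in 8 libraries of HEK293T cells. The authors deposited FPKM per RefSeq transcript and library; the submitters' processing notes name TopHat2 2.1.1, Bowtie2 2.2.8.0, Cuffdiff and hg19, without saying what each did. Scaling between libraries is not given in the sources used here. Of 53216 rows, 52737 were paired with a symbol (52028 by a RefSeq table of GRCh38.p14, 709 through GENCODE 29), and FPKM was summed per symbol. DXO has 6 rows, for copies of its region; 1 was above 0.

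Genes whose FPKM averaged 1 or more over the compared libraries entered two-sided limma tests (version 3.58.1, R 4.3.3; lmFit, then eBayes with a trend) on log2(FPKM + 1), a scale that understates changes of low genes, with Benjamini-Hochberg adjustment over all of them. Only the groups compared entered a fit. The script was tested on simulated data.

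Depth came from 7149 rows of 1500 to 6000 nt that were the only row of their gene. FPKM times length minus 200 nt lay within 4% of a whole multiple (1 to 4) of a step for 70.7% to 73.3% of low values, against 14.6% for an even spread. Fragment numbers are given only for members with a single row above 0, leaving out NUDT3. The 95% Poisson intervals cover counting error only.

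The members and lists were chosen with earlier results of these data known. By rule, all 10 members are named, and from each other list up to 3 genes called in each direction with the largest change, or, where none passed, the most abundant in RiboMinus. A result that this rule would name is not reported here. The 3 genes most like DXO, DCP2 and XRN1 were taken by Pearson r. Alternatives were a pseudocount of 0.1, other filters and scalings, transcript rows, a common fit of all 8 libraries, the replicate number as a block and leaving out each library; the counts of groups that do not overlap under alternatives were added after seeing the data. Python 3.11.15 with pandas 2.3.3, numpy 2.4.6, scipy 1.17.1 and matplotlib 3.10.9 was used.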

Additional observations from a re-analysis of the deposited data

How the results depend on the processing

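Over 450 alternative values of single members, 406 kept their direction and side of the threshold, 25 lost the call, 6 gained it and 13 turned. Most of the 406 were values not called to begin with. In WT NAD-Capture against RiboMinus, the DCP1A call held in 12 of 15 alternatives and the XRN2 call in 10 of 15. In the DXO-KO-labelled libraries against RiboMinus, calls held in 9 of 15 for DXO, 10 of 15 for DCPS and 7 of 13 for NUDT3. For WT NAD-Capture against RiboMinus, 4209 genes were called as reported, 2386 at a mean FPKM of at least 10, 2416 with quantile normalization, 6363 by transcript rows, 2645 in the common fit of 8 libraries and 19 to 5372 when 1 library was left out (19 and 30 without RiboMinus replicates 1 and 2). The members called were 2, or 1 with quantile normalization and 0 to 3 when 1 library was left out. For the NAD-Capture groups, 6 genes were called, against 71 above 0 in every library, 11 after centring, 27 with quantile normalization, 11 with mRNA scaling, 440 in the common fit (with 2 members) and 4 to 16 with 1 library left out (0 members in each such fit). For the DXO-KO-labelled libraries against RiboMinus, 501 genes were called, against 1527 above 0 in every library, 85 with no filter, 809 with quantile normalization, 315 with mRNA scaling, 3148 by transcript rows, 878 in the common fit and 1 to 1510 with 1 library left out. Members called there were 3, or 1 with no filter, 1 with mRNA scaling and 0 to 3 with 1 library left out. Of these calls 74.5% were higher as deposited and 54.6% after centring.

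No pairing by replicate number was seen: same-numbered NAD-Capture libraries correlated at −0.016, −0.0038 and −0.033 in their deviations from the group means. At so few fragments and libraries, low correlations cannot exclude a pairing. With the replicate block limma called 0 genes and 0 members in WT NAD-Capture against RiboMinus (5760 genes at an unadjusted p under 0.05). It called 4 genes and 0 members between the NAD-Capture groups, and 0 and 0 in the DXO-KO-labelled libraries against RiboMinus (3593 unadjusted).

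Values that turned were, in WT NAD-Capture against RiboMinus, DCP2 (−0.16 centred, −0.11 with mRNA scaling), NUDT16 (−0.17, −0.11, and −0.38 to 0.87 with 1 library left out, the lowest without WT NAD-Capture replicate 1), NUDT12 (0.95 by its main transcript row) and XRN1 (0.055 with the replicate block, and −0.63 to 0.055 with 1 library left out); between the NAD-Capture groups, DCP2 (−0.056 with quantile normalization, −3.37 by transcript row) and XRN1 (−0.48 by transcript row); and in the last comparison, DCP2 (−2.98) and XRN1 (−0.89) by transcript row. None of these values passed the threshold, and the cause was not tested. Between 2 and 15 fragments stood behind DCP1B, DXO, DCPS and XRN2 in every captured library except DXO-KO-labelled replicate 1.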
